A study of Homo sapiens with 6 samples.

Results

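The genes described here encode the proteins of the mitochondrial ribosome. They are the 75 genes named MRPL or MRPS with a number, pseudogenes left out, whose mean over all 6 libraries was at least 1 FPKM (fragments per kilobase of transcript and mapped fragments, a value scaled to transcript length and library size). RefSeq holds 77 such names and the deposited table holds 76 of them. MRPL45 was not analysed here. By their names, 48 members belong to the large subunit and 27 to the small subunit. Only MRPS21 fell outside the minimum, which had the floor value of 0.1 FPKM in all 6 libraries. The members nearest to the minimum were MRPL50, MRPL44 and MRPL30, with means of 5.87, 7.13 and 7.497 FPKM. The minimum of 1 FPKM therefore decided the membership of MRPS21 alone. The table kept 18795 genes, and 12454 of them passed the same minimum and were tested.

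The mitochondrial ribosome is built from ribosomal RNAs encoded in mitochondrial DNA and from proteins that are all encoded in the nucleus, made in the cytosol and imported. It translates the few messengers of mitochondrial DNA, which encode core subunits of the respiratory chain and of ATP synthase. Members with low numbers are counterparts of bacterial ribosomal proteins, and those with high numbers were added in mitochondria. By number, 43 of the 75 members have a bacterial counterpart and 32 do not.

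The libraries were made from HCC70 and MDA-MB-468, established human breast cancer lines of the basal-like type. HCC70 was grown in RPMI medium and MDA-MB-468 in Leibovitz medium, so line and medium cannot be told apart. The cells of each line were detached, fixed in methanol, stained and sorted. One population was positive for keratin 18 (K18+), another for keratin 18 and keratin 14 (K18+K14+) and the other for keratin 18 and vimentin (K18+Vim+). Keratin 18 is a marker of luminal epithelium, keratin 14 of basal epithelium and vimentin of mesenchymal cells. Each line gave 1 library per population, so there were n = 2 libraries per population and n = 3 per line. Nothing in the labels names separate cultures, and p-values measure only how far the populations or lines disagree among these libraries. In such bulk libraries a different mix of cells and a different amount of RNA per cell cannot be told apart.

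One library stood apart in its line, that labelled MDA-MB-468 K18+Vim+. It listed SMAD4 and RB1, genes deleted in this line, at 5.19 and 6.68 FPKM, while the other MDA-MB-468 libraries lay at or below 0.566 FPKM for both. EGFR, which is amplified in this line, stood at 10.4 FPKM there, against 153 FPKM in K18+ and 70.7 FPKM in K18+K14+. The summed level of 5 epithelial markers was 195 FPKM there. The sum was 2095 FPKM in K18+ and 3040 FPKM in K18+K14+ of the same line, and 1247 to 1497 FPKM in HCC70. All 5 were detected in all 6 libraries. The summed levels of the immune, fibroblast, endothelial and erythroid markers stayed below 10 FPKM in all 6 libraries. The main results that use this library are also given without it.

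The members were expressed well above the typical gene in every library. Their median was 36.03, 36.2 and 34.1 FPKM in K18+, K18+K14+ and K18+Vim+ of HCC70. In MDA-MB-468 the corresponding medians were 51.9, 60.7 and 66.1 FPKM. On the log2(FPKM + 1) scale these medians lay 1.53, 1.76 and 1.67 above the median of all genes tested in HCC70, and 2.19, 2.76 and 2.67 above it in MDA-MB-468. The distance was therefore larger in each MDA-MB-468 library than in any HCC70 library. Together the members took between 0.848% and 1.24% of the summed FPKM of a library. For scale, 77 genes of the cytosolic ribosome had medians between 598 and 1701 FPKM, and 74 nuclear genes of oxidative phosphorylation, the respiratory chain and ATP synthase, between 129 and 334 FPKM.

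Levels differed widely among the members. MRPL52, a large subunit protein without a bacterial counterpart, had the highest mean, at 346, 464 and 423 FPKM in HCC70 K18+, K18+K14+ and K18+Vim+ and at 218, 387 and 511 FPKM in MDA-MB-468. MRPS15, MRPL51, MRPL20 and MRPL55 followed, with means of 263, 263, 224 and 224 FPKM. MRPL52 lay above these 4 in every HCC70 library, but below MRPS15 and MRPL51 in MDA-MB-468 K18+ and below MRPL51 in MDA-MB-468 K18+K14+. MRPL50, a large subunit protein at the other end, stood at 6.28, 7.41 and 4.68 FPKM in the HCC70 libraries and at 5.07, 2.29 and 9.505 FPKM in those of MDA-MB-468. MRPL44, which has a fold like that of ribonuclease III, MRPL30, MRPL19 and MRPS30 completed the lowest 5, with means between 7.13 and 13.8 FPKM. The plot of member levels shows all 75 by library.

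**Figure D1:**
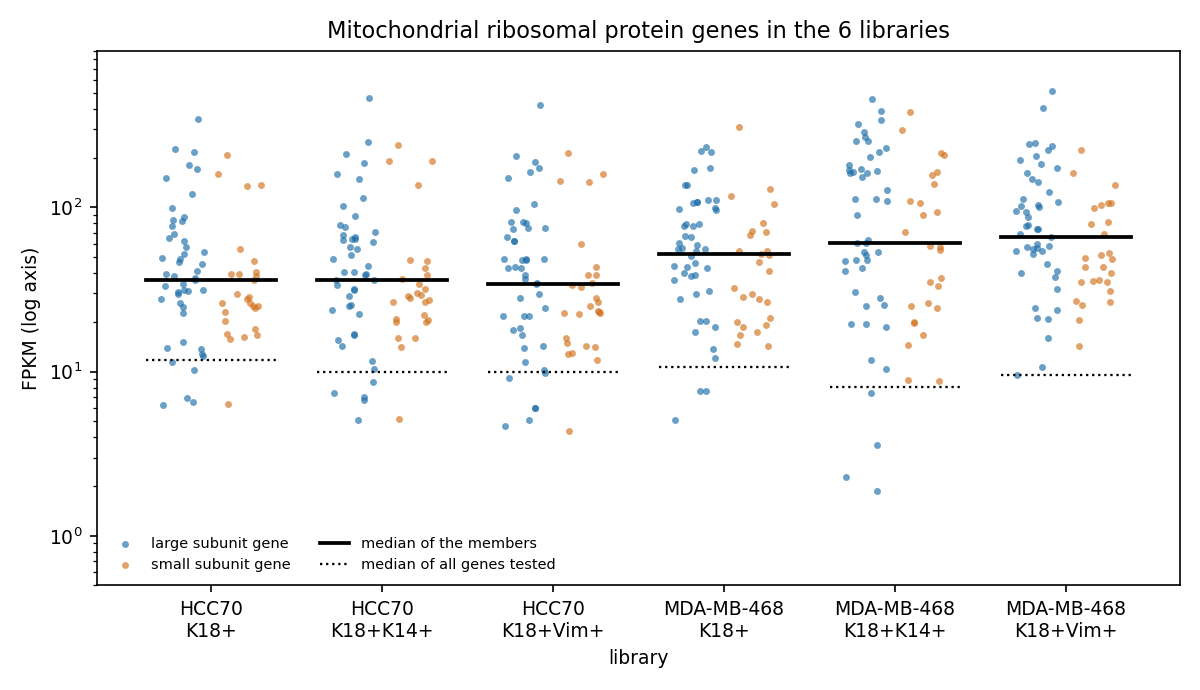
FPKM of the 75 members (log axis) in each of the 6 libraries, 1 point per gene, with the member median as a solid line and the median of all genes tested as a dotted one. The member medians lie between 34.1 and 36.2 FPKM in the HCC70 libraries and between 51.9 and 66.1 FPKM in the MDA-MB-468 libraries.

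FPKM values of these genes carry limits of their own. RefSeq names at least 1 pseudogene for 39 of the 75 members, and reads could be shared with such copies. MRPL57 has 8 and MRPL42, MRPS17 and MRPS18C have 6 each. Member transcripts were short, with a median length of 1028 bases against 1760 bases for all genes tested.

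The members varied less between the libraries of HCC70 than between those of MDA-MB-468, as did all genes. The highest of the 3 HCC70 libraries exceeded the lowest by a median factor of 1.33 over the members, and by 2-fold or more for 2 of 75. Over all genes tested the median factor was 1.48, and 19.6% differed by 2-fold or more. Within MDA-MB-468 the median factor was 2.08, and 42 of 75 members differed by 2-fold or more, beside a median factor of 2.46 for all genes, of which 8097 of 12454 differed by 2-fold or more. Between the K18+ and K18+K14+ libraries of MDA-MB-468, without the library that stood apart, the median factor was 1.59 and 22 of 75 members differed by 2-fold or more, beside 1.64 and 34.6% for all genes.

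Between the lines, 10 members were higher in MDA-MB-468 and none was lower with limma at an adjusted p under 0.05. Among all genes tested, 4.54% were called higher and 7.68% lower. At an unadjusted p under 0.05, 29 members were higher, against 15.1% of all genes, and 1 was lower, against 18.0%. The total share of members called, 10 of 75, was near that of all genes. All 10 were higher, while over all genes more were called lower than higher. The fitted differences of the members had a median 0.66 above that of all genes on the log2 scale, or 0.29, 0.70 and 0.84 in the K18+, K18+K14+ and K18+Vim+ populations. The library that stood apart thus entered the highest of these values, and the other pairs of libraries gave the same sign. Without the K18+Vim+ libraries the fitted median was 0.59.

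MRPL54, a large subunit protein without a bacterial counterpart, had the largest difference. It stood at 11.5, 14.3 and 18.0 FPKM in HCC70 K18+, K18+K14+ and K18+Vim+ and at 39.7, 113 and 76.8 FPKM in MDA-MB-468. All MDA-MB-468 libraries lay above all HCC70 libraries, and the log2 difference was 2.21 ± 0.36 (SE, n = 3 per line, limma adjusted p = 0.0198).

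MRPL21, a counterpart of bacterial L21, stood at 36.03, 39.2 and 34.8 FPKM in the HCC70 libraries and at 111, 218 and 125 FPKM in those of MDA-MB-468. The lines did not overlap, with a log2 difference of 1.95 ± 0.35 (limma adjusted p = 0.0238). MRPL23, a counterpart of bacterial L23, stood at 48.5, 51.6 and 47.9 FPKM in the HCC70 libraries and at 107, 289 and 248 FPKM in those of MDA-MB-468. Its lowest MDA-MB-468 value, in K18+, was still above all HCC70 values, and the log2 difference was 1.98 ± 0.40 (limma adjusted p = 0.0315). MRPL27 stood at 30.7, 28.7 and 27.9 FPKM in the HCC70 libraries and at 50.8, 171 and 149 FPKM in those of MDA-MB-468. Its K18+ libraries were the closest pair, and the log2 difference was 1.87 ± 0.45 (limma adjusted p = 0.0453). MRPL12 forms the stalk of the large subunit, where translation factors are recruited. It stood at 45.4, 61.8 and 48.6 FPKM in the HCC70 libraries and at 99.2, 229 and 174 FPKM in those of MDA-MB-468, again without overlap, with a log2 difference of 1.60 ± 0.35 (limma adjusted p = 0.0363).

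Of the genes named for the small subunit, MRPS6 stood at 25.1, 27.5 and 22.9 FPKM in the HCC70 libraries and at 130, 214 and 48.6 FPKM in those of MDA-MB-468. The library that stood apart was the lowest of its line and still above HCC70, and the log2 difference was 2.10 ± 0.44 (limma adjusted p = 0.0332). MRPS30 is named for the small subunit, but its product is a protein of the large subunit in structures of the human mitochondrial ribosome. It stood at 6.39, 5.19 and 4.36 FPKM in the HCC70 libraries and at 16.6, 25.1 and 25.3 FPKM in those of MDA-MB-468. These values did not overlap, with a log2 difference of 1.88 ± 0.34 (limma adjusted p = 0.0257). MRPS7 and MRPS26 were also called, with log2 differences of 1.60 ± 0.33 and 1.58 ± 0.37.

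MRPS17 was the other called gene of the small subunit, and it lies near EGFR on chromosome 7. In RefSeq order it is 6 protein-coding genes from EGFR, a relation looked up after its values were seen. It stood at 16.9, 16.1 and 12.7 FPKM in the HCC70 libraries and at 54.2, 109 and 35.2 FPKM in those of MDA-MB-468, with a log2 difference of 1.91 ± 0.38 (limma adjusted p = 0.0301). The lowest MDA-MB-468 value came from the library that stood apart, in which EGFR was also lowest. Between EGFR and MRPS17, LANCL2 differed by 3.65 ± 0.68 on the log2 scale (limma adjusted p = 0.0265), while SEPTIN14 differed by -0.59 ± 0.33 (limma adjusted p = 0.259). SEPTIN14 had a mean of only 1.88 FPKM, near the minimum for testing. ZNF713, next to MRPS17 on the EGFR side, had a mean of 3.20 FPKM and differed by 0.92 ± 0.37 (limma adjusted p = 0.139). On the far side of MRPS17, NIPSNAP2 differed by 0.44 ± 0.31 (limma adjusted p = 0.353), and the next genes PSPH and CCT6A by 1.40 ± 0.43 and 1.41 ± 0.38 (limma adjusted p = 0.0776 and 0.0577). SUMF2 followed with 0.29 ± 0.37, and PHKG1 with 1.49 ± 0.36, which passed the test (limma adjusted p = 0.0467). These fits include the library that stood apart. In the K18+ and K18+K14+ libraries, the log2 ratios between the lines were 2.67 and 1.92 for EGFR and 4.71 and 4.77 for LANCL2. They were 1.88 and 2.64 for VOPP1, also between EGFR and MRPS17, and 1.93 and 1.95 for PSPH. SEPTIN14 had -0.51 and -0.56, ZNF713 1.38 and 1.12, and NIPSNAP2 0.57 and 0.34. Differences between the lines were therefore uneven along this stretch, and the part of gene copy number was not tested.

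**Figure D2:**
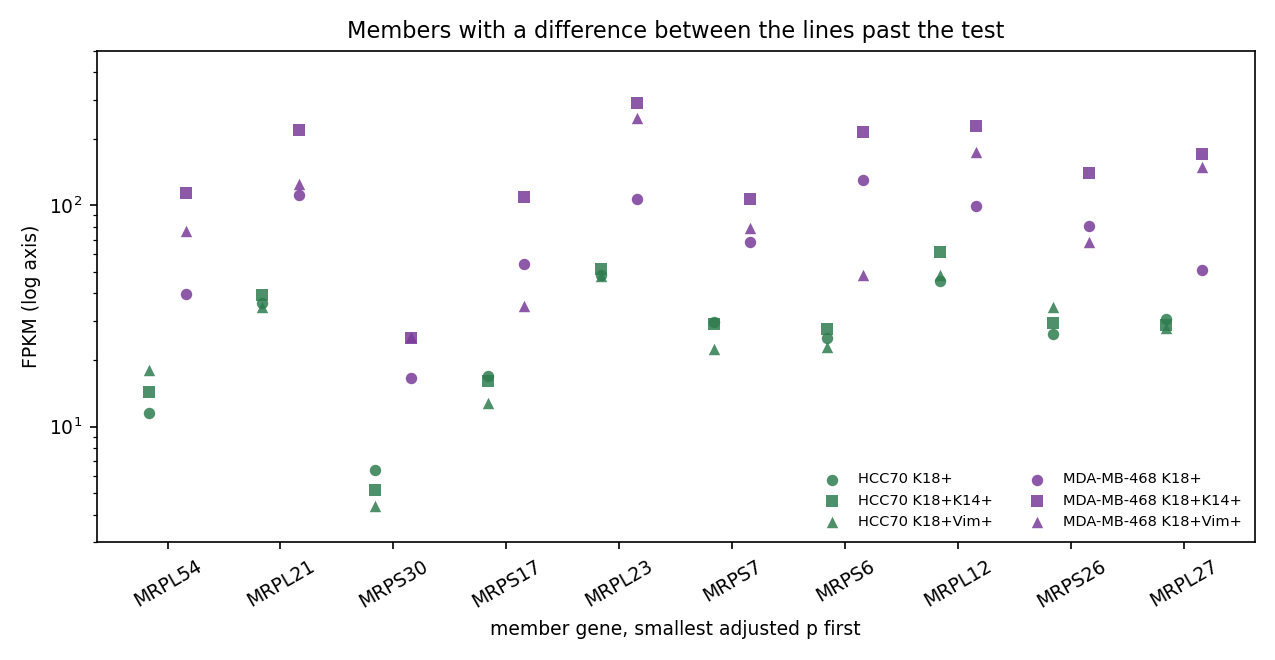
FPKM (log axis) of the members called between the lines, in the 3 libraries of each line. For each of the 10 genes the MDA-MB-468 libraries lie above the HCC70 libraries.

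Many more members were separated between the lines than were called. For 38 of 75 all MDA-MB-468 libraries lay above all HCC70 libraries, against 20.1% of all genes tested, and for 1 of 75 they lay below, against 21.0%. Without the K18+Vim+ libraries, 45 members were separated upward, against 30.4% of all genes, and 12 downward, against 32.2%. MRPS25, a small subunit protein without a bacterial counterpart, was the member separated downward. It stood at 135, 137 and 142 FPKM in the HCC70 libraries and at 46.8, 58.0 and 104 FPKM in those of MDA-MB-468. The highest of its MDA-MB-468 values came from the library that stood apart, and the log2 difference was -1.06 ± 0.37 (limma adjusted p = 0.102). From the K18+ and K18+K14+ libraries alone, 20 members were called, 19 higher and 1, MRPS25, lower. In that fit 11.5% of all genes were called higher and 15.5% lower, and all 10 members named above were among the 20.

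The calls between the lines needed both the K18+ and K18+K14+ libraries of each line. None of the 75 members was called when any 1 of those 4 libraries was left out, and 206 to 326 genes were called over the whole table. None was called with no filter on low values either.

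**Figure D3:**
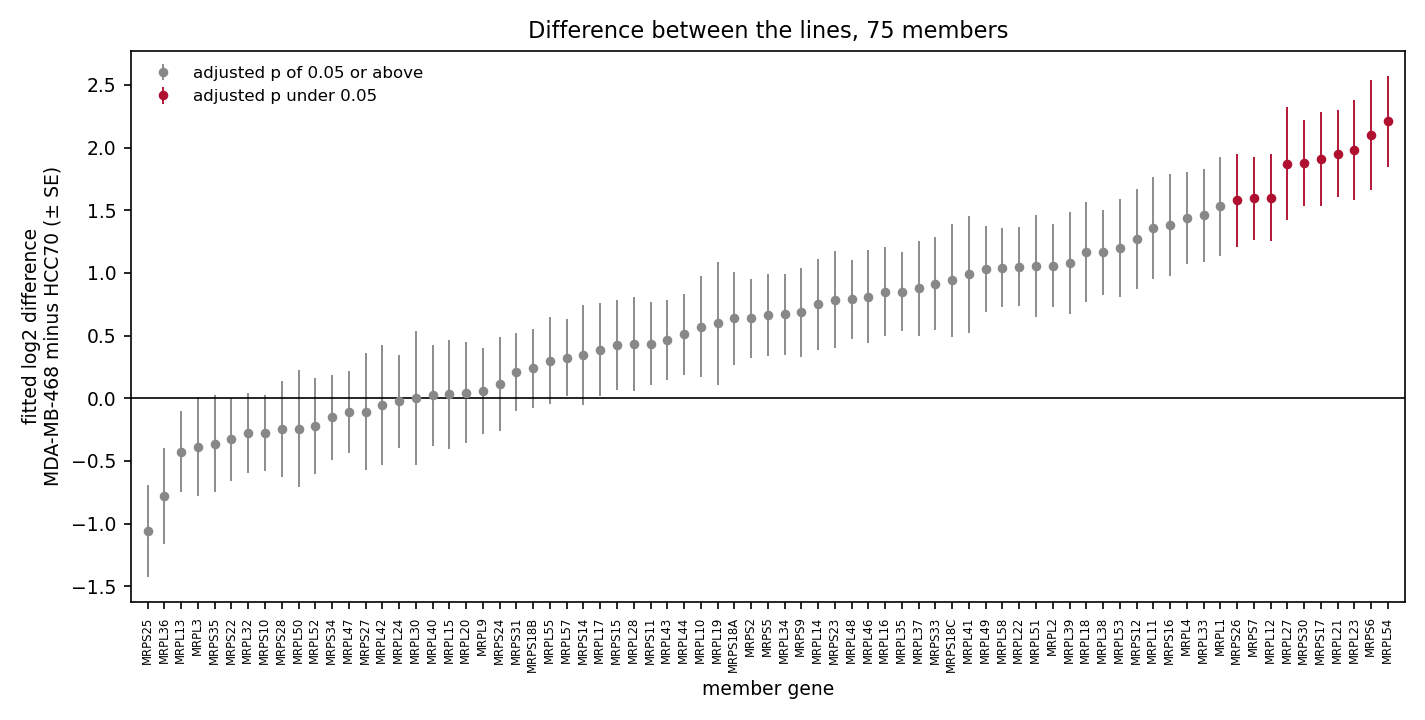
Fitted log2 difference between MDA-MB-468 and HCC70 for the 75 members in order of size, with SE bars, the called members in red and a line at 0. The 10 called members have differences from 1.58 to 2.21, and MRPS25 stands at -1.06.

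By the subunit in their names, which puts MRPS30 in the small one, the median difference between the lines relative to all genes was 0.76 for the large and 0.63 for the small subunit, with 5 called members in each. By origin it was 0.66 for members with a bacterial counterpart, 7 of them called, and 0.48 for those found only in mitochondria, 3 of them called. Neither contrast was tested. Over all genes tested, 4.54% were called higher and 7.68% lower. Without the K18+Vim+ libraries these medians were 0.63 and 0.39 by subunit and 0.65 and 0.36 by origin. The calls were then 12 higher for the large subunit, and 7 higher and 1 lower for the small. They were 14 higher for members with a bacterial counterpart, and 5 higher and 1 lower for the others. In that fit 11.5% of all genes were called higher and 15.5% lower. The same median was 1.12 for the genes of the cytosolic ribosome, of which 8 of 77 were called higher, and 0.98 for the oxidative phosphorylation genes, of which 12 of 74 were. No gene of either list was called lower. Without the K18+Vim+ libraries the medians were 1.01 and 0.96. Then 4 of 77 were called higher, and 18 of 74 were called higher and 2 lower, beside 11.5% and 15.5% of all genes.

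The lettered genes MRPS18A, MRPS18B and MRPS18C encode 3 homologs of bacterial S18 that sit at different places of the ribosome. MRPS18A stood at 26.1, 26.6 and 22.8 FPKM in the HCC70 libraries and at 32.3, 71.3 and 26.8 FPKM in those of MDA-MB-468. Its MDA-MB-468 K18+K14+ library was the high one. MRPS18B stood at 40.4, 39.0 and 26.7 FPKM in the HCC70 libraries and at 41.1, 54.9 and 31.1 FPKM in those of MDA-MB-468, with the lowest value of each line in K18+Vim+. MRPS18C stood at 38.3, 47.5 and 23.5 FPKM in the HCC70 libraries and at 51.4, 57.6 and 106 FPKM in those of MDA-MB-468. In HCC70 its lowest value was in K18+Vim+, and in MDA-MB-468 its highest. None of the 3 was called between the lines, and the 6 pseudogenes of MRPS18C make its values uncertain.

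Start regions of the members are shown because some strings were more common in member windows than in all windows. Whether these strings go with the calls between the lines was not tested. Of the 75 fitted differences between the lines 59 were positive and 16 negative, so the members did not all differ in 1 direction. Windows from 250 bases before to 50 bases after the RefSeq start (GRCh38.p14) were at hand for 67 of the 75 members and for 10204 of the genes tested. Both strands were searched for 12 letter strings, and the 3 described next were kept after all shares had been seen. CCGGAAG, the core bound by ETS factors such as GABPA, was found in 28 of 67 member windows, or 41.8%, against 19.5% of all windows. A longer string bound by YY1, shown in capitals in the second set of windows, was found in 13 of 67, or 19.4%, against 2.80%. The palindrome bound by NRF1 was found in 1 of 67, or 1.49%, against 2.36%. Of the other strings, GGGCGG was found in 61.2% of member windows against 69.9% of all, CCAAT in 28.4% against 36.8% and CACGTG in 7.46% against 10.2%. A longer form of the ETS string, CCGGAAGT, was found in 16.4% against 8.86%, and the remaining 5 strings in at most 10.5% of member windows. These matches are letters only and say nothing of binding in these cells.

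The next windows are each 30 bases read 5′ to 3′ on the strand of the gene. They hold an ETS string in 3 of the 10 members called between the lines (MRPL54, MRPL27 and MRPS26). No ETS match was found for the other called members, but any of them without a window was not searched. Over all members 28 of 67 windows held a match, so the 2 counts do not have the same base. The string is in capitals, and MRPL27 holds 2 of them. In MRPL54 and MRPS26 it is on the other strand and reads CTTCCGG.
MRPL54, chr19:3762650-3762679, plus strand: gccactgacgtCTTCCGGaaacgtgcactt
MRPL27, chr17:50373218-50373247, minus strand: ccacgcagggcCCGGAAGtagatctcctga
MRPL27, chr17:50373174-50373203, minus strand: acttttcgagaCCGGAAGtgagtgatcgaa
MRPS26, chr20:3046004-3046033, plus strand: tccccgcgccgCTTCCGGggcacggtggcg

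The YY1 string, in capitals in the next set, lay after the start in 10 of its 13 matches. Its windows are shown for MRPS30, called between the lines, for the paralogues MRPS18A and MRPS18B, which were not, and for MRPL50, the member with the lowest mean.
MRPS30, chr5:44808950-44808979, plus strand: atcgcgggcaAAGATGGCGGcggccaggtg
MRPS18A, chr6:43687763-43687792, minus strand: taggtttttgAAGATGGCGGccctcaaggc
MRPS18B, chr6:30617853-30617882, plus strand: ggcgtacgtcAAGATGGCGGcgtctgtatt
MRPL50, chr9:101398576-101398605, minus strand: gatctcatcgAAGATGGCGGcgcgatctgt
The string is the same in all 4, whose mean levels ranged from 5.87 FPKM for MRPL50 to 38.9 FPKM for MRPS18B.

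K18+K14+ cells were compared with K18+ cells to find which transcripts go with keratin 14. The members leaned to the K18+K14+ side in both lines, more in MDA-MB-468, but no single member passed the test. With limma, 0 of 75 members were called, as were 0.0% of all genes in either direction, and the smallest member adjusted p was 0.855. The count was also 0 without the library that stood apart, which still helps to set the line term. At an unadjusted p under 0.05 there were 0 members, while 0.554% of all genes were higher and 2.88% lower. The median log2 ratio of the members, relative to that of all genes, was 0.17 for HCC70 and 0.56 for MDA-MB-468. With no filter on low values it was 0.03 and 0.39. That setting keeps the same members and moves only the median of all genes, so the HCC70 value depends on which genes set that median. Without centring, the member medians were 0.02 for HCC70 and 0.39 for MDA-MB-468. Of the 75 members 44 lay above the median of all genes in both lines, against 31.7% of all genes, and 7 lay below it in both, also against 31.7%. Without centring on the median of all genes, 33 members had positive ratios in both lines and 15 negative ones, beside 2510 and 5440 of all genes.

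MRPL55 and MRPS34 had the largest ratios shared by both lines. In HCC70, MRPL55, a large subunit protein, stood at 251 FPKM in K18+K14+ and 170 FPKM in K18+. Its MDA-MB-468 values were 339 and 173 FPKM. MRPS34, a small subunit protein, stood at 191 and 137 FPKM in HCC70 and had 209 and 105 FPKM in MDA-MB-468. The K18+K14+ value was thus the higher in each line for both genes. MRPL12, MRPL52 and MRPL38 followed, with log2 ratios from 0.40 to 0.44 in HCC70 and from 0.82 to 1.198 in MDA-MB-468.

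On the lower side, MRPL19, a counterpart of bacterial L19, was listed at 6.70 FPKM in K18+K14+ of HCC70 (K18+ 10.3 FPKM) and at 3.56 FPKM in that of MDA-MB-468 (K18+ 20.4 FPKM). MRPL3, a counterpart of bacterial L3, was listed at 68.2 FPKM (K18+ 99.0 FPKM) and at 30.6 FPKM (K18+ 77.1 FPKM). Both were thus lower in K18+K14+ in each line. MRPS22, MRPL42 and MRPL32 followed, with log2 ratios from -0.48 to -0.40 in HCC70 and from -0.80 to -0.49 in MDA-MB-468. Members of the same subunit therefore lay on both sides.

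Transcript level and length stand beside these ratios. When the members were split by their level in HCC70, a split made after the values were seen, the median relative ratio in MDA-MB-468 was 0.17 for the lowest 25, 0.56 for the middle 25 and 1.04 for the highest 25. Over all genes the ratio fell with transcript length, with a Spearman correlation across genes of -0.157 for HCC70 and -0.244 for MDA-MB-468, where genes share a library and are not independent. Over the 75 members the correlation was -0.032 and -0.221. After a correction for length the member medians were 0.11 and 0.48, and after quantile normalization 0.12 and 0.30. The 100 genes with the highest values held 36.4% of the summed FPKM of MDA-MB-468 K18+K14+, against 25.1% of MDA-MB-468 K18+. The part of these properties in the member medians was tested only by those corrections.

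**Figure D4:**
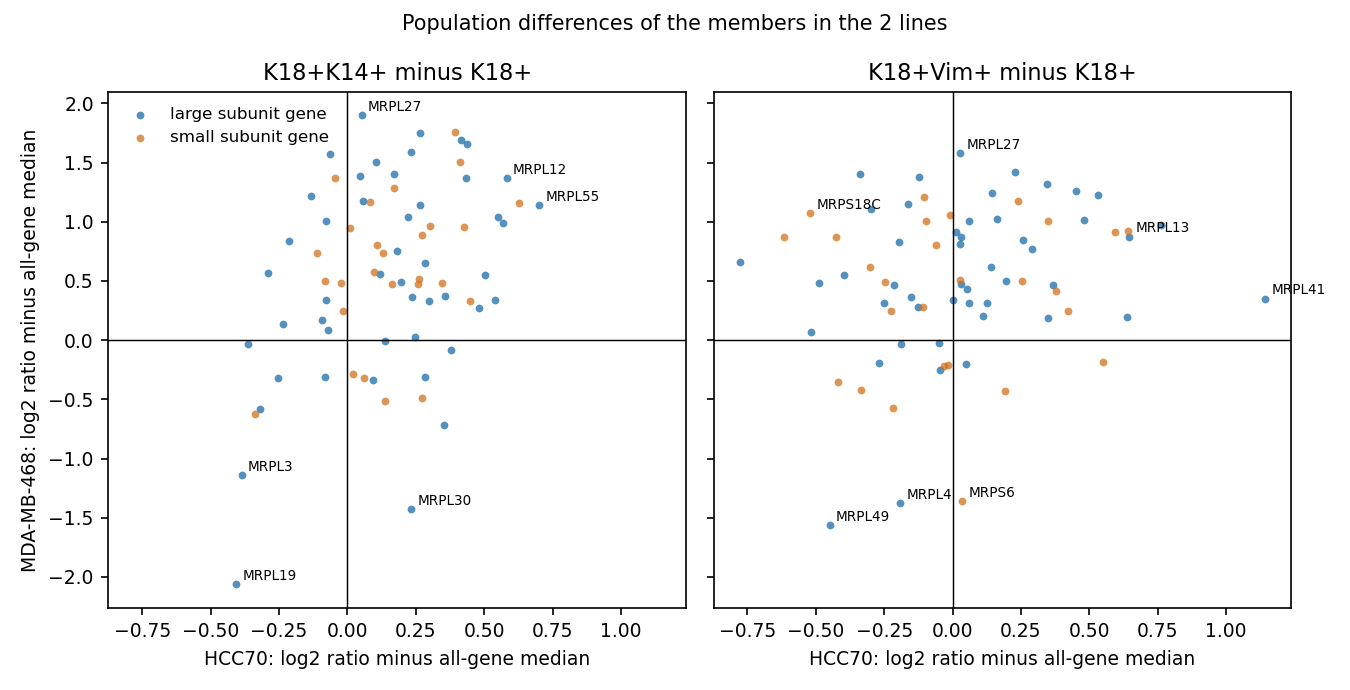
Log2 ratios of the 75 members relative to the median of all genes tested, HCC70 on the horizontal and MDA-MB-468 on the vertical axis, for K18+K14+ minus K18+ (left) and K18+Vim+ minus K18+ (right), with several genes labelled. In the left panel 44 members lie above 0 in both lines and 7 below 0 in both, and in the right panel 36 and 11.

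Both comparisons with K18+ use the same K18+ libraries, so the values of K18+Vim+ are given on their own. With limma, 0 of 75 members were called between K18+Vim+ and K18+, as were 0.0% of all genes in either direction, with a smallest member adjusted p of 0.863. At an unadjusted p under 0.05 there was 1 member, MRPL49, which was lower, while 1.08% of all genes were higher and 3.20% lower. The relative member median was 0.03 in HCC70 and 0.50 in the MDA-MB-468 libraries, of which the K18+Vim+ library is the one that stood apart. Without it, only the HCC70 value remains. That value was below 0 with a pseudocount of 5 FPKM (-0.03), with no filter on low values (-0.13), after quantile normalization (-0.02) and after length correction (-0.03). Above the median of all genes in both lines lay 36 members, against 25.8% of all genes, and below it in both lay 11, against 25.8%.

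MRPL49, a large subunit protein, had K18+Vim+ and K18+ values of 16.8 and 26.3 FPKM in HCC70, and of 24.6 and 76.6 FPKM in MDA-MB-468. It was thus lower in both lines, with a log2 difference of -1.11 ± 0.42 (limma adjusted p = 0.863). MRPS10, MRPS18B, MRPS17 and MRPL4 also had lower values in both lines, with log2 ratios from -0.58 to -0.35 in HCC70 and from -1.41 to -0.39 in MDA-MB-468. MRPL54, MRPL13, MRPS31, MRPS2 and MRPL53 had higher values in both, from 0.37 to 0.60 in HCC70 and from 0.84 to 1.19 in MDA-MB-468. MRPL54, for example, had K18+Vim+ and K18+ values of 18.0 and 11.5 FPKM in HCC70, and of 76.8 and 39.7 FPKM in MDA-MB-468.

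Between K18+Vim+ and K18+K14+ the members again gave 0 calls with limma, as did 0.0% of all genes, with a smallest member adjusted p of 0.682 and 1 member, MRPL4, lower at an unadjusted p under 0.05. At that threshold 2.59% of all genes were higher and 2.87% lower. The relative medians were -0.11 in HCC70 and -0.01 in MDA-MB-468. Above the median of all genes in both lines lay 13 members and below it 28, against 25.3% of all genes each. MRPL4, a counterpart of bacterial L4, had K18+Vim+ and K18+K14+ values of 24.3 and 36.3 FPKM in HCC70, and of 41.1 and 128 FPKM in MDA-MB-468, the first lower in both lines. MRPL38, MRPL49, MRPS18B and MRPL55 also had lower values in both lines, and MRPS31, MRPL13, MRPL46, MRPL10 and MRPS22 higher ones. When the HCC70 K18+Vim+ library was left out, some members were called in each direction, a smaller share than among all genes tested. In that fit the library that stood apart alone represented K18+Vim+, so its calls are not read.

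Genes that make, serve or regulate the mitochondrial ribosome were taken from lists written with earlier results of these data known. In K18+K14+ against K18+ none of their genes was called with limma, as were 0.0% of all genes in either direction. GADD45GIP1 and AURKAIP1, ribosome proteins under other symbols, had K18+K14+ values of 73.8 and 176 FPKM in HCC70 beside K18+ values of 61.0 and 143 FPKM. In MDA-MB-468 the K18+K14+ values were 704 and 561 FPKM and the K18+ values 151 and 158 FPKM. Both were thus higher in K18+K14+, with far larger ratios in MDA-MB-468. Of the 5 tested genes of that list 4 lay above the median of all genes in both lines and 0 below. Of 26 assembly and RNA modification genes 13 lay above and 5 below, with relative medians of 0.03 and 0.17. All genes tested gave 31.7% on each side.

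The 74 oxidative phosphorylation genes leaned like the members, with 49 above the median of all genes in both lines and 5 below, as did the 77 genes of the cytosolic ribosome, with 48 and 0. Over all genes each share was 31.7%. Of 24 import genes 11 lay above and 5 below. The lists differed in direction. Of 13 translation factors, which drive initiation, elongation and release, 3 lay above in both lines and 7 below. Of 8 regulators of mitochondrial biogenesis 1 lay above and 4 below. GABPA, the ETS factor named above, had K18+K14+ and K18+ values of 3.35 and 5.90 FPKM in HCC70, and of 3.07 and 8.75 FPKM in MDA-MB-468, the first lower in both. TFAM, which packages mitochondrial DNA, had 2.32 and 4.18 FPKM in HCC70 and 3.13 and 8.52 FPKM in MDA-MB-468. POLRMT, the mitochondrial RNA polymerase, lay on the other side, with 68.3 and 49.7 FPKM and then 174 and 49.8 FPKM. Of the 13 genes of mitochondrial DNA maintenance and transcription, 5 lay above and 6 below.

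Between the lines, 1 of the 26 assembly genes was called higher in MDA-MB-468 and 1 lower with limma, beside 4.54% and 7.68% of all genes. All MDA-MB-468 libraries lay above all HCC70 libraries for 10 of the 26 and below for 3, against 20.1% and 21.0% of all genes tested. YBEY, an endonuclease of ribosomal RNA maturation, stood at 4.07, 4.51 and 4.57 FPKM in the HCC70 libraries and at 28.6, 79.5 and 50.2 FPKM in those of MDA-MB-468. The lines were far apart, with a log2 difference of 3.20 ± 0.36 (limma adjusted p = 0.00843). GTPBP10, a GTPase of large subunit assembly, stood at 41.1, 31.5 and 24.9 FPKM in the HCC70 libraries and at 8.61, 5.99 and 10.2 FPKM in those of MDA-MB-468. It was lower in every MDA-MB-468 library, with a log2 difference of -1.85 ± 0.35 (limma adjusted p = 0.0272). GADD45GIP1 was the called gene among the ribosome proteins under other symbols, with a log2 difference of 1.99 ± 0.48 (limma adjusted p = 0.0448). Of 24 import genes 2 were called higher, TIMM8A and TIMM8B, and none of the translation factors (13), tRNA synthetases (22), messenger stability genes (13), DNA genes (13) or regulators (8) was called. Without the K18+Vim+ libraries all 5 of these called genes were called again in the same direction, with log2 differences of 3.21 for YBEY, -2.17 for GTPBP10, 2.27 for GADD45GIP1, 1.93 for TIMM8A and 1.66 for TIMM8B. In that fit, where 11.5% of all genes were called higher and 15.5% lower, 3 assembly genes, 2 ribosome proteins under other symbols, 4 import genes, 2 tRNA synthetases and 1 messenger stability gene were called higher. Called lower were 1 assembly gene, 1 import gene, 2 messenger stability genes, 1 translation factor and 1 DNA gene.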

How the data were processed

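RNA from 6 sorted libraries, 3 populations of each of 2 lines, was measured by RNA sequencing. Reads were aligned with TopHat2 to GRCh37, per the submitters' processing notes. The deposited FPKM values are the authors' own, with a floor of 0.1 and a ceiling of 10000, and their read depth is unknown, so no counting interval can be given. The table pairs Entrez IDs with no symbols. Symbols came from RefSeq (GRCh38.p14) for 18732 of 18795 genes, and no coordinates were converted between builds. From the table, 7 rows with a blank and 5 repeated IDs were left out.

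Genes reaching a mean of 1 FPKM were fitted on log2(FPKM + 1) with limma 3.58.1 (R 4.3.3, trend), with population and line as terms, which leaves the line as the block that pairs libraries of 1 source. Adjusted p-values are Benjamini-Hochberg over all 12454 genes within a comparison, at 0.05. Log2 ratios understate the change of low genes. Lists are described by counts and medians, without a test. Transcript lengths are medians of GENCODE release 29 transcripts. The procedure was tested on simulated data. A first simulation, with variances set to the fitted ones, gave more false calls than the nominal rate. The simulation, not the fit, was then changed to draw variances from limma's prior, with a wider tolerance, so false calls may exceed the nominal rate if the prior does not hold. The members and lists were chosen with earlier results of these data known. Named members are, for each population pair, the 5 per direction with the largest ratio shared by both lines, for the lines those called or separated with the largest differences (MRPS7 and MRPS26 were added after their values were seen), the 5 highest and 5 lowest means, and the lettered paralogues. The lists of the cytosolic ribosome and oxidative phosphorylation, the level split, the gene order near EGFR and the promoter strings were chosen after the values were seen. Alternatives were other pseudocounts (0.1 and 5 FPKM), filters, scalings, a length correction, no trend, no block, fewer libraries and leaving out each library. The list counts between the lines without the K18+Vim+ libraries were added after the data were seen.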

Additional observations from a re-analysis of the deposited data

Results flagged for a closer look

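For 13 pairs of a member and a comparison, the log2 ratio was at least 0.5 in size in both lines and of opposite sign, a minimum set after the values were seen. The difference between the lines was not tested, since each line gave 1 ratio. These ratios were not centred on the median of all genes. How many of all genes meet the same minimum was not counted, so the count cannot be set against other genes. All 13 involve the K18+Vim+ libraries, of which the one labelled MDA-MB-468 stood apart, and there were 0 such members between K18+K14+ and K18+.

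Between K18+Vim+ and K18+ there were 6. The log2 ratio of MRPL1 was -0.94 in HCC70 but 0.62 in MDA-MB-468, that of MRPL39 -0.56 and 0.51, and that of MRPL42 -0.50 and 1.37. MRPS14 had -0.78 and 0.83, MRPS18C -0.68 and 1.03, and MRPS27 -0.59 and 0.83. In all 6 the HCC70 ratio was the negative one, and the median HCC70 ratio of all genes was also negative, at -0.16. Relative to that median, the HCC70 values of MRPL39, MRPL42 and MRPS27 were -0.40, -0.34 and -0.43, under the minimum in size.

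Between K18+Vim+ and K18+K14+ there were 7. The log2 ratio of MRPL15 was -0.56 in HCC70 but 1.21 in MDA-MB-468, that of MRPL39 -0.70 and 0.99, that of MRPL50 -0.57 and 1.67, and that of MRPS14 -0.61 and 0.52. MRPS18C had -0.99 and 0.87, and MRPS27 -0.71 and 1.49. MRPL41 alone had the reverse signs, 0.86 and -1.27. Relative to the median of all genes, the MDA-MB-468 value of MRPS14 was 0.40, under the minimum. The comparisons share the K18+Vim+ libraries, so the 4 members in both lists are not independent cases.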

How the results depend on the processing

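The count of members called between the lines was 20 from the K18+ and K18+K14+ libraries alone, beside 27% of all genes. It was 0 with no filter on low values, where no gene of the table was called. With each library left out in turn it ranged from 0 to 19, while the share of all genes called ranged from 1.65% to 27%. The count was 15 with no replicate block (population left out of the fit), beside 15.1% of all genes. The 10 called members were among the calls of every alternative that called any. The count between K18+Vim+ and K18+K14+ ranged from 0 to 5 with each library left out, and the mean of the 2 line medians was 0.10 after quantile normalization against -0.06. In the other population comparisons 0 members were called under every alternative. Other genes were called in some of those fits, most of all for K18+Vim+ against K18+ without the HCC70 K18+Vim+ library. There the library that stood apart alone represented K18+Vim+, so the calls of that fit are not read. The line is named by the labels and pairs the libraries; with no replicate block the population comparisons also gave 0 members. The mean of the line medians was 0.21 to 0.40 for K18+K14+ against K18+ over the other settings, and 0.17 to 0.29 for K18+Vim+ against K18+. It was closest to 0, at -0.01, with no filter on low values for K18+Vim+ against K18+K14+. The medians with each line alone ranged from 0.17 to 0.56, from 0.03 to 0.50 and from -0.11 to -0.01. The cause of these changes was not tested. With 2 residual degrees of freedom and unknown depth, a member not called is not shown to be unchanged.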
